A study of Mus musculus with 6 samples.

Results

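The MAP kinase phosphatases are 10 dual-specificity phosphatases, encoded by Dusp1, Dusp2, Dusp4, Dusp5, Dusp6, Dusp7, Dusp8, Dusp9, Dusp10 and Dusp16, and 1 of them, Dusp4, is the gene deleted in the mice studied here. Their transcripts were followed in splenic T cells of 3 DUSP4-/- and 3 WT samples, each hybridised to 1 Affymetrix Mouse Gene 2.0 ST array. Each gene was read from the probe set that names no other gene, taking the one with the highest mean over the 6 arrays where there were several, which gave 10 of the 22180 genes measured. The mice were 6 to 8 weeks old, the DUSP4-/- line lacks Dusp4 in every cell and had been back-crossed to C57Bl/6, and the WT mice were C57Bl/6. The T cells were enriched with magnetic beads from fresh splenocytes and lysed without culture or treatment, so no stimulus was added to either genotype. Whether the cells had been activated in the animal or during isolation was not tested. Same-numbered samples of the genotypes are called a pair, since the study describes independent pairs. The labels do not say which animals a sample came from, so p-values measure the spread between these samples. All levels are deposited log2 values, on which a difference of 1 is a doubling, and all differences are DUSP4-/- minus WT.

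MAP kinases are switched on by phosphorylation of a threonine and a tyrosine in their activation loop, and the phosphatases of this family remove both phosphates. DUSP1, DUSP2, DUSP4 and DUSP5 are nuclear enzymes whose genes are induced by the signals that they later terminate. DUSP6, DUSP7 and DUSP9 are cytoplasmic and act mainly on ERK, while DUSP8, DUSP10 and DUSP16 act mainly on JNK and p38. In T cells several of these genes are induced through the antigen receptor, and DUSP4 has also been described as a phosphatase of STAT5, the transcription factor downstream of IL-2.

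Dusp4 itself was read at 5.10, 6.18 and 6.78 in DUSP4-/- replicates 1, 2 and 3, against 6.33, 7.61 and 8.13 in WT replicates 1, 2 and 3. Every DUSP4-/- sample was below the WT sample of its pair, but the genotypes overlapped, since DUSP4-/- replicate 3 was above WT replicate 1. The means were 6.02 ± 0.85 in DUSP4-/- and 7.36 ± 0.93 in WT (SD, n = 3 each), a difference of -1.34 (SE 0.52), which left 39.5% of the WT signal. Within the pairs the signal was 0.426, 0.370 and 0.392 of that of the WT partner in pairs 1, 2 and 3. The log2 differences of -1.23, -1.44 and -1.35 had an SD of 0.10 over the pairs, far less than the SD between samples of either genotype. Where the probes lie relative to the deletion was not given in the sources used here, so the remaining signal cannot be assigned to transcript or to background of the array.

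Over all probe sets, limma without a block gave Dusp4 an unadjusted p of 0.0323 and a Benjamini-Hochberg adjusted p of 1.00, and it called 0 of 22180 genes (0%), with 397 higher and 202 lower at an unadjusted p under 0.05. Same-numbered samples were taken as pairs, which the labels do not state. With the pair as a block, limma gave Dusp4 an unadjusted p of 1.55e-05, the smallest of the 22180 genes, and an adjusted p of 0.182. That fit also called 0 genes (0%). The 95% interval of the fold was 0.334 to 0.467 with the block and 0.173 to 0.905 without it. An exact two-sided permutation test of the unpaired values gave p = 0.2, where the smallest p that 3 against 3 allows is 0.1. The call depends on the fit: with the block, leaving out probe sets dimmer than the median brought the adjusted p of Dusp4 in limma to 0.0149, and an intensity trend with robust settings over all probe sets brought it to 7.07e-05.

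**Figure D1:**
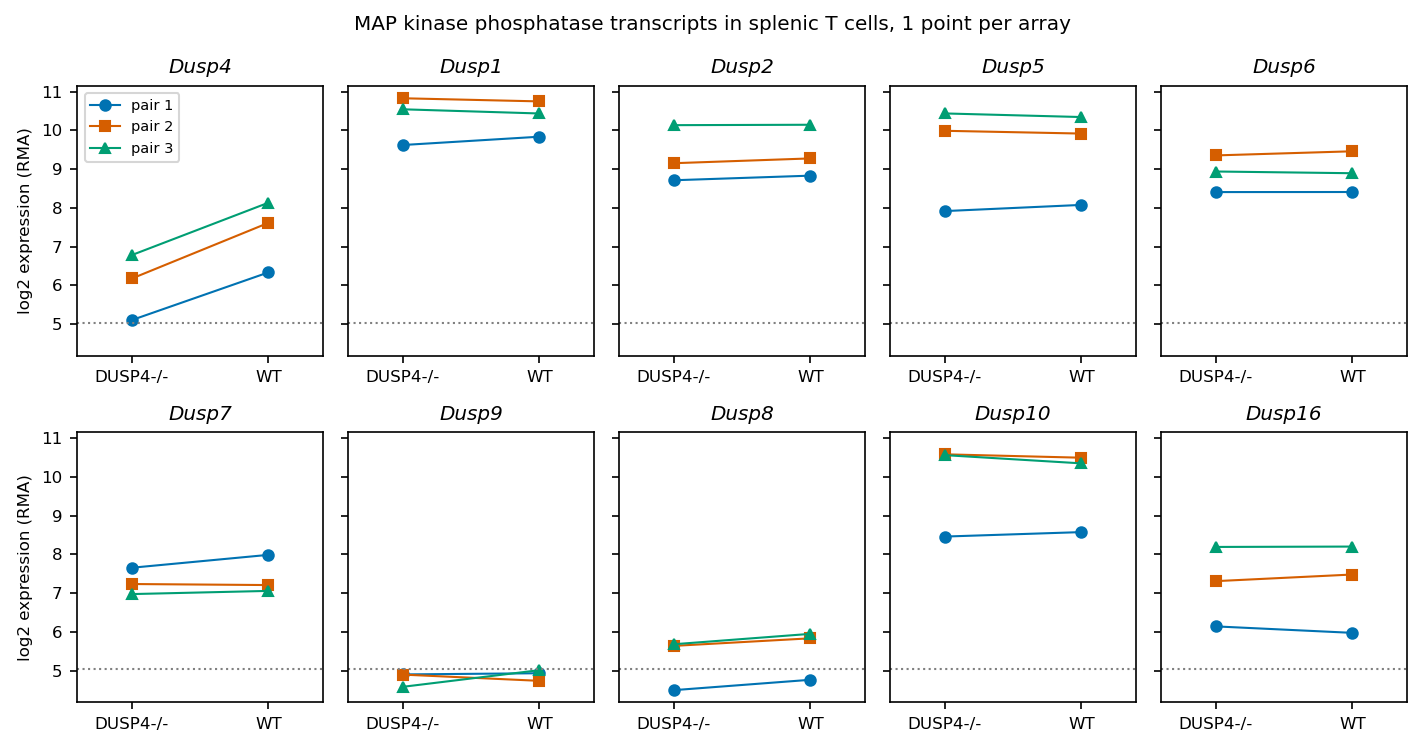
Expression of the 10 MAP kinase phosphatase genes on each array (y axis, deposited log2 value), with DUSP4-/- left and WT right in each panel, 1 line per pair and a dotted line at the median of all probe sets. Only the lines of Dusp4 slope by more than 1 log2 unit, and for most genes pair 1 lies apart from pairs 2 and 3.

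The stretch before the transcription start was taken for the 8 members that have an entry in the RefSeq promoter table (GRCm38.p6), and was searched on both strands for motifs through which signal-induced genes are often controlled. The cyclic AMP response element TGACGTCA, bound by CREB and ATF factors, occurred in 2 of the 8, Dusp1 and Dusp8, and in 1.55% of the 32851 promoter windows of the table. Its shorter core TGACG, which the full element contains, occurred in 4 of the 8 (Dusp1, Dusp5, Dusp8 and Dusp16) and in 17.8% of all windows. The CArG box, bound by serum response factor, occurred in 1 of the 8, Dusp5, and in 1.47% of all windows. Neither the AP-1 element TGANTCA (6.75% of windows) nor the STAT element TTCNNNGAA (7.02% of windows) was found in the 8. The 3 promoters that hold a full cyclic AMP response element or a CArG box are printed over the 250 bases before the start, 5′ to 3′, with these motifs in capitals. Dusp1 has a single element from 143 to 136 bases before the start. Dusp5 has 2 CArG boxes that abut, at 82 to 73 and 72 to 63 bases before the start. Dusp8 has 2 cyclic AMP response elements, at 107 to 100 and 63 to 56 bases before the start. A match describes the letters of the window and not a bound site.
Dusp1, chr17:26508473-26508722, minus strand: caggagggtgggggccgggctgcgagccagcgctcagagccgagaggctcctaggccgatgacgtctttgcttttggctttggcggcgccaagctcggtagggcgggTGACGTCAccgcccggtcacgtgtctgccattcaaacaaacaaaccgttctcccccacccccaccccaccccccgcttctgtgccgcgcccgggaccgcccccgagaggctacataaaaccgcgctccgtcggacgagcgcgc
Dusp5, chr19:53528895-53529144, plus strand: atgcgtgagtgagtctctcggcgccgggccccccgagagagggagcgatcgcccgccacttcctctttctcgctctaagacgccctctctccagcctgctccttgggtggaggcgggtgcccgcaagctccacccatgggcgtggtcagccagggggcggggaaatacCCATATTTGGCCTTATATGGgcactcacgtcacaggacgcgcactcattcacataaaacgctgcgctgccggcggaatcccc
Dusp8, chr7:142095285-142095534, minus strand: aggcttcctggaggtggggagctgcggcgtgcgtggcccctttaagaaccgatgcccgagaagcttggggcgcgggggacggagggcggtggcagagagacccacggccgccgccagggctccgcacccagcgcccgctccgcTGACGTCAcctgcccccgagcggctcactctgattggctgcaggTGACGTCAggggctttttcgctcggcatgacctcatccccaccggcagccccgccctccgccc

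Among the other nuclear members, no transcript was detectably higher in DUSP4-/- cells. Dusp1, which acts on p38, JNK and ERK, was read at 9.62, 10.83 and 10.54 in DUSP4-/- and at 9.84, 10.75 and 10.43 in WT. It was lower in DUSP4-/- in pair 1 and higher in pairs 2 and 3, with a mean difference of -0.0086 and a 95% fold interval of 0.823 to 1.20 with the block. Dusp2, a nuclear phosphatase abundant in haematopoietic cells, was read at 8.71, 9.15 and 10.13 in DUSP4-/- and at 8.83, 9.27 and 10.14 in WT. It was lower in all 3 pairs, by at most 0.12, and the mean difference of -0.084 had a fold interval of 0.804 to 1.11. Dusp5, which dephosphorylates ERK and holds it in the nucleus, was read at 7.92, 9.99 and 10.44 in DUSP4-/- and at 8.07, 9.92 and 10.34 in WT. Its mean difference was 0.0016, with a fold interval of 0.839 to 1.19. With the block the intervals of these 3 genes lie above that of Dusp4, whose upper limit was 0.467, whereas without it all 3 overlap that of Dusp4.

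None of the cytoplasmic ERK phosphatases was called between genotypes either. Dusp6, itself a target gene of ERK signalling, was read at 8.41, 9.35 and 8.94 in DUSP4-/- and at 8.41, 9.46 and 8.89 in WT, a difference of -0.021 with a fold interval of 0.838 to 1.16. A second, dim probe set of Dusp6 was read at 3.18, 3.38 and 3.96 in DUSP4-/- and at 3.74, 3.48 and 3.82 in WT. Dusp7, a close relative of Dusp6, was read at 7.65, 7.23 and 6.97 in DUSP4-/- and at 7.99, 7.21 and 7.06 in WT. It was lower in DUSP4-/- in pairs 1 and 3 and slightly higher in pair 2, and the difference of -0.13 had a fold interval of 0.756 to 1.11. Dusp9, best known from placenta and insulin-sensitive tissues, was read at 4.90, 4.90 and 4.58 in DUSP4-/- and at 4.93, 4.73 and 5.01 in WT. All its values lie below the median probe set of 5.03, so its difference of -0.10 (fold interval 0.736 to 1.18) is one between dim readings.

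Of the phosphatases of JNK and p38, Dusp8 had the smallest SD of the pair differences among the 10 members (0.042). It was read at 4.49, 5.64 and 5.68 in DUSP4-/- and at 4.76, 5.83 and 5.95 in WT. After Dusp9 it is the dimmest member, and both readings of pair 1 lie below the median probe set of 5.03. The differences of -0.27, -0.20 and -0.27 in pairs 1, 2 and 3 had a mean of -0.24, and the block gave a fold interval of 0.722 to 0.989. Its unadjusted p with the block was 0.0398 in limma and its adjusted p 0.770, so it was not called, and by p it ranked 1100 among the genes. Dusp10, a negative regulator of JNK in T cells, was read at 8.46, 10.58 and 10.56 in DUSP4-/- and at 8.57, 10.49 and 10.35 in WT, a difference of 0.061 with a fold interval of 0.868 to 1.25. Dusp16, a JNK phosphatase that shuttles between nucleus and cytoplasm, was read at 6.14, 7.31 and 8.19 in DUSP4-/- and at 5.97, 7.48 and 8.20 in WT. Its difference was -0.0046 and its fold interval 0.828 to 1.20.

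**Figure D2:**
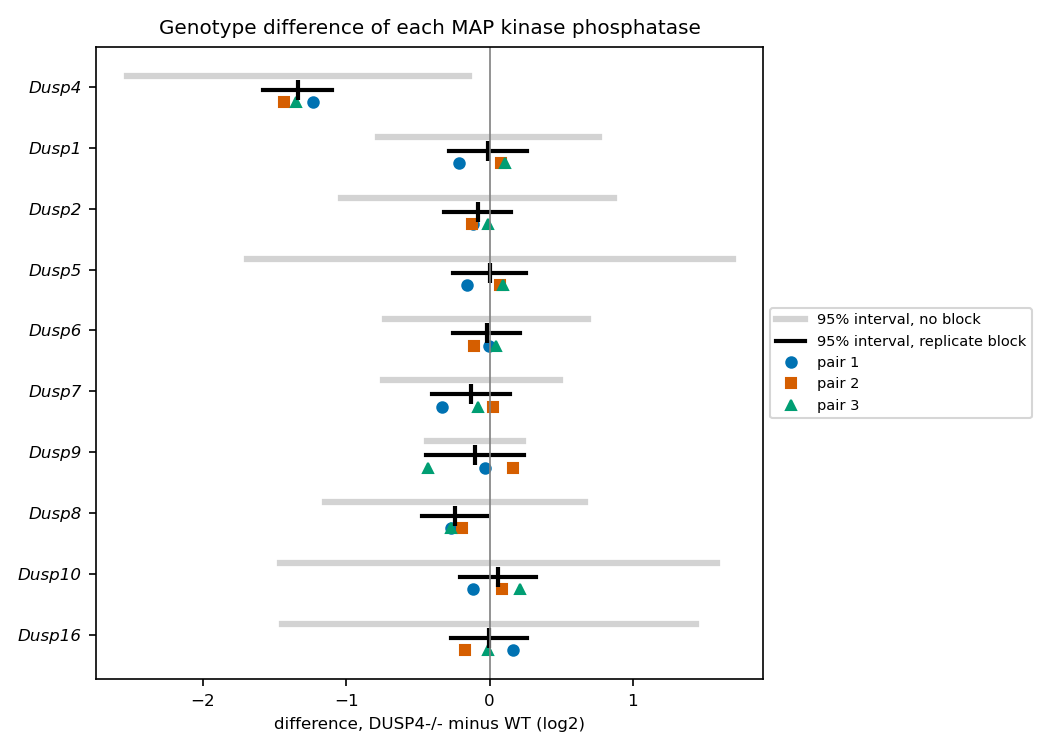
Difference of each MAP kinase phosphatase between DUSP4-/- and WT (x axis, log2), with 1 point per pair, a black line for the 95% interval with the replicate block and a grey line for that without a block (tick: mean). Dusp4 is at -1.34, and the black intervals of all others but Dusp8 include 0.

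The intervals also bound how much higher another member could have been in DUSP4-/- cells. With the block, the highest upper limit among the other 9 members was 1.25-fold, for Dusp10. Without it the spread between pairs enters the error, and the upper limit reached 3.24-fold, for Dusp5. None of the 9 was higher in all 3 pairs, a pattern shown by 16.6% of all genes, and none was higher at an unadjusted p under 0.05 with the block (3.7% of genes). Dusp2, Dusp4 and Dusp8 were lower in all 3 pairs (11.1% of genes), and Dusp4 and Dusp8 were lower at an unadjusted p under 0.05 (2.49% of genes). No member had genotypes that did not overlap, against 7.44% of all genes.

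Most members differed more between pairs than between genotypes. Dusp5 was lowest in pair 1 and highest in pair 3 in both genotypes, and its pair means of 8.00, 9.95 and 10.39 in pairs 1, 2 and 3 span 5.26-fold. Dusp16 spanned 4.40-fold (6.06, 7.39 and 8.20) and Dusp10 4.06-fold (8.52, 10.54 and 10.45). Dusp4 spanned 3.34-fold, and its ranges of 5.10 to 6.78 in DUSP4-/- and 6.33 to 8.13 in WT overlap. Within the pairs its difference stayed between -1.44 and -1.23. Dusp2, Dusp8, Dusp1 and Dusp6 spanned 2.58-fold, 2.27-fold, 2.08-fold and 2.00-fold. In these 8 genes pair 1 was the lowest. Dusp7 was the reverse, with pair means of 7.82, 7.22 and 7.01, and Dusp9 was nearly level, with a range of 0.12.

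The range of the pair means was wider for Dusp5, Dusp10 and Dusp16 than for 99.9% of genes, and for Dusp4 than for 99.7%. Dusp2, Dusp8, Dusp1, Dusp6 and Dusp7 exceeded 99.3%, 98.8%, 98.2%, 97.8% and 95.4% of genes. The median range over all genes was 0.27, whereas that of Dusp5 was 2.39 and that of Dusp9 was 0.12. An F test between pairs in limma, chosen after these data had been seen, called 8 of the 10 members at an adjusted p under 0.05, all but Dusp7 and Dusp9, against 2.45% of all genes. The adjusted p was 0.0117 for Dusp5, 0.0152 for Dusp4, Dusp10 and Dusp16, 0.0227 for Dusp2, 0.0253 for Dusp8, 0.0386 for Dusp6 and 0.0427 for Dusp1, and it was 0.0692 for Dusp7 and 0.856 for Dusp9. These calls rest on pair 1. Without it limma called 0 genes between pairs 2 and 3 (0%), no member among them, while 5 members (Dusp2, Dusp4, Dusp5, Dusp6 and Dusp16) had an unadjusted p under 0.05, as did 11% of genes. Without pair 2 it called 6 members (2.83% of genes) and without pair 3 it called 5 (0.622% of genes). The shares in this paragraph are over all genes, dim ones included. With all pairs but without probe sets dimmer than the median, the test called all 9 members left, and 26% of genes.

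**Figure D3:**
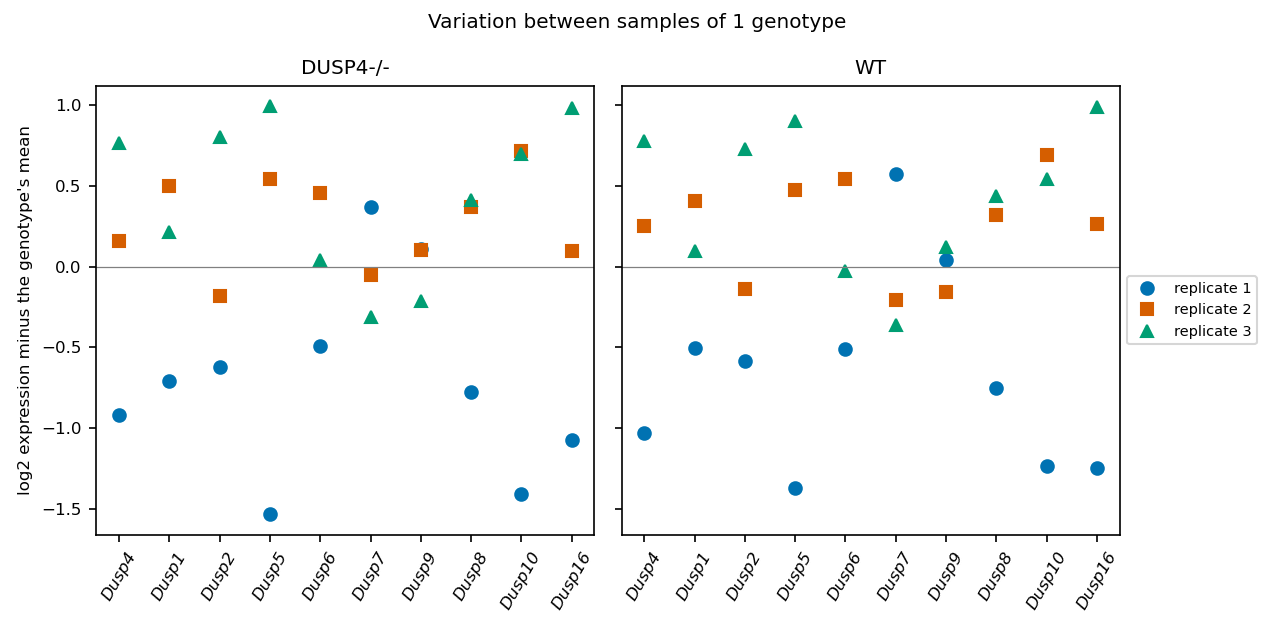
Deviation of each sample from its genotype's mean (y axis, log2) for the 10 genes, with DUSP4-/- in the left panel, WT in the right panel and 1 symbol per replicate number. In both genotypes replicate 1 is the lowest for all members except Dusp7 and Dusp9, and Dusp9 has a different order of replicates in the 2 panels.

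Xist and the B cell markers also set pair 1 apart, with their highest readings there. Xist, the RNA of the inactive X chromosome in female cells, was read at 10.12, 3.71 and 3.87 in DUSP4-/- and at 10.09, 3.58 and 3.87 in WT, so replicate 1 of both genotypes differed from the rest. The labels give no sex, and whatever separates pair 1 cannot be told apart from what goes with this reading. All 9 B cell markers measured of 10 listed were highest in pair 1, as were 37.2% of all genes. Of the 9, Cd22, Cd79a, Cd79b and Spib were called between pairs (2.45% of all genes), and the summed linear signal of all 9 was 1240, 588 and 761 in DUSP4-/- and 1208, 567 and 757 in WT. T cell markers summed to 18724, 16633 and 16285 in DUSP4-/- and to 18236, 16662 and 16192 in WT, with 9 of 11 highest in pair 1 and 0 called. All 6 NK cell markers measured of 8 listed were highest in pair 1, at a sum of 383, 244 and 271 in DUSP4-/- and of 328, 252 and 319 in WT, with 0 called. Cd3e was read at 11.53 to 11.78 in DUSP4-/- and at 11.49 to 11.65 in WT. Cd8a was read at 10.32 to 10.76 in DUSP4-/- and at 10.40 to 10.79 in WT, and Cd4 at 10.96 to 11.10 in DUSP4-/- and at 10.82 to 10.98 in WT, so transcripts of both T cell lineages were present. The part of cell composition in the differences between pairs was not tested, and in these bulk samples fewer cells of a type and less RNA per cell cannot be told apart. Between genotypes, the 8 plasma cell markers had a median difference of -0.24 and a summed signal of 1315 to 2046 in DUSP4-/- against 1770 to 2656 in WT. The summed signal of 7 dendritic cell markers was 624 to 778 in DUSP4-/- and 733 to 859 in WT, that of 12 myeloid markers was 789 to 881 in DUSP4-/- and 850 to 1158 in WT, and B cell markers had a median difference of 0.040. The part of these cells in the differences of Dusp4 and Dusp8 was not tested.

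**Figure D4:**
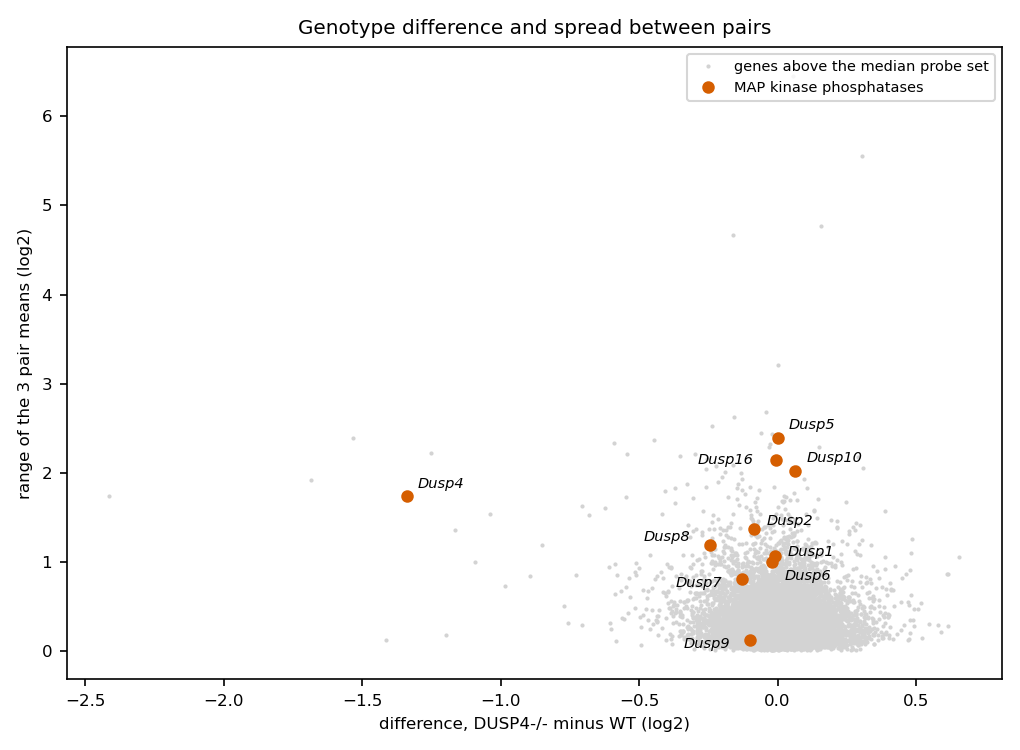
Difference between DUSP4-/- and WT (x axis, log2) against the range of the 3 pair means (y axis, log2) for the genes above the median probe set (grey) and the 10 MAP kinase phosphatases (orange, including the dimmer Dusp9). Dusp4 stands at -1.34 and 1.74, whereas Dusp5, Dusp10 and Dusp16 have ranges above 2 at differences near 0.

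Immediate early genes, which encode transcription factors and feedback regulators induced within minutes of receptor signalling, also varied between pairs. Of the 15 listed, all measured, 7 were called between pairs, against 2.45% of all genes, and 11 were lowest in pair 1, against 38.3% of all genes. All 15 were above the median probe set, and the shares over such genes alone were not counted in this fit. These calls too rest on pair 1, without which no gene was called. The nuclear receptor Nr4a3, an early target of the T cell receptor, was read at 7.57, 9.60 and 10.38 in DUSP4-/- and at 7.79, 9.57 and 10.33 in WT, with an adjusted p between pairs of 0.0116 in limma. In both genotypes it rose from replicate 1 to replicate 3, an order shared with Dusp2, Dusp4, Dusp5, Dusp8 and Dusp16. Among the immediate early genes Nr4a1, Nr4a2, Atf3, Ier2, Ier5 and Zfp36 had this order too. The share of all genes with this order was not counted. Atf3, Fosb, Junb, Nr4a1 and Nr4a2 were called and lowest in pair 1, while Egr3 was called and highest there (7.02, 6.44 and 6.20 in pairs 1, 2 and 3). Fos was not called (adjusted p = 0.0611 in limma).

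Neither the kinases that these phosphatases act on nor their other regulators were called between genotypes, in either direction, with or without the block. The median difference over all genes was 0.019, against which the list medians are read. The atypical dual-specificity phosphatases, which lack the kinase-binding domain of the family, had a median of 0.039 over 15 of 16 genes, with Dusp28 at 0.12, Dusp19 at -0.097, Dusp22 at -0.082 and Dusp11 at 0.065 as the largest among those above the median probe set. Other phosphatases of MAP kinases had a median of 0.035 over 8 genes, with values from -0.083 for Ppm1a to 0.076. Ppp2ca, the catalytic subunit of protein phosphatase 2A, was at 0.042. MAP kinases had a median of 0.027 over the 11 genes analysed here. Of those above the median probe set, Mapk8, the gene of JNK1, was at 0.035, Mapk11 at 0.045 and Mapk7 at -0.047. The dimmer ones ran from -0.080 for Mapk10 to 0.25 for Mapk13 and 0.36 for Mapk4. MAP kinase kinases had a median of 0.033 over 6 of 7 genes, from Map2k3, an activator of p38, at -0.13 to Map2k2, an activator of ERK, at 0.11.

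Genes downstream of ERK were likewise not called. The 13 of 14 feedback and target genes measured had a median of -0.11, with 8 below 0. This median lay between -0.14 and 0.025 over the 20 alternatives described below, and was above 0 only without pair 3. The share of all genes below 0 was not counted. Ier3, an early response gene, differed by -0.28 and Spry2, a feedback inhibitor of receptor signalling, by -0.18, whereas the ETS factor Etv5 differed by 0.22 and Phlda1 by 0.21. Immediate early genes had a median of -0.032 between genotypes. Fos differed by -0.32 and was lower in all 3 pairs, by 0.092, 0.10 and 0.76, so that pair 3 carried most of the mean. Atf3 differed by -0.22, Nr4a2 by 0.15 and Egr1 by -0.11.

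**Figure D5:**
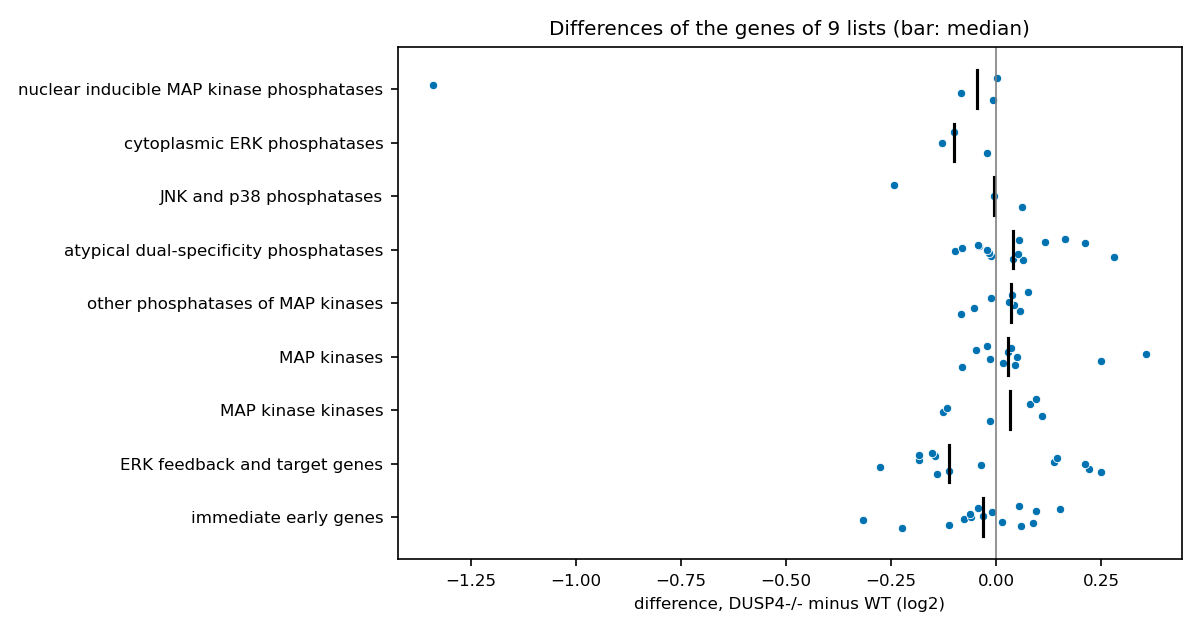
Difference of each gene between DUSP4-/- and WT (x axis, log2) in the 3 groups of MAP kinase phosphatases and 6 lists of related genes, 1 point per gene and a bar at the list's median. Dusp4 at -1.34 lies outside the range of -0.32 to 0.36 that holds all other points.

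The genes most like Dusp4 were ranked among 11423 genes above the median probe set, as a description over 6 arrays that share the pairs. By the values themselves the highest Pearson r were those of Plpp6 (0.991), Fzd5 (0.982), Smg8 (0.978), L3mbtl2 (0.970), Zfp119a (0.970) and Dnajc8 (0.969), whose pair means had ranges of only 0.14 to 0.41. By the deviations from the genotype means, which leave out the genotype difference, the highest were those of Ccr7, the homing receptor for lymph nodes, Tmed9, Hic2, Timm23, Rnf139 and Mapk6, each with r of 0.998 or more. Dusp16 came next at 0.998. Ccr7 was read at 10.04, 10.68 and 11.03 in DUSP4-/- and at 9.99, 10.73 and 11.07 in WT. Mapk6, the gene of the atypical kinase ERK3, was read at 8.44, 9.12 and 9.43 in DUSP4-/- and at 8.41, 9.11 and 9.38 in WT. Among the members the r of these deviations with Dusp4 was 0.983 for Dusp5, 0.962 for Dusp8, 0.929 for Dusp10, 0.918 for Dusp2, 0.805 for Dusp1, 0.670 for Dusp6 and -0.985 for Dusp7. Many other genes had an r as high. Among the 11423 genes Dusp5 ranked 216, Dusp8 553, Dusp10 972, Dusp2 1100, Dusp1 2014 and Dusp6 2739, and Dusp7 ranked 11149.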

How the data were processed

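Total RNA of MACS-sorted splenic T cells was hybridised to Affymetrix Mouse Gene 2.0 ST arrays. The authors deposited RMA values on the log2 scale (Affymetrix Expression Console, version not given in the sources used here). RMA adjusts for background, brings all arrays to 1 distribution and condenses the probes of a probe set into 1 value, which compresses dim signals. A figure legend of the study names an analysis of variance for the arrays and mentions no block. Array medians were 4.99 to 5.07. Precision is limited by there being 6 arrays. Of 41345 probe sets, 23521 name 1 gene in the platform annotation and entered a linear model per probe set with moderated errors (limma 3.58.1, R 4.3.3), with Benjamini-Hochberg adjustment over all of them and a threshold of 0.05. The 1820 probe sets naming several genes and the 16004 naming none were left out.

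The main fit had no block. Deviations from the genotype means correlated at 0.308 to 0.578 between samples of the same number and at -0.436 to 0.103 otherwise, and with the study's mention of independent pairs the number was taken as a pair. Alternatives were the block, each sample or pair left out, dim probe sets left out, other scalings, an intensity trend, array weights and the analysis of variance. The fits were also run on simulated data built with the same pairing and error model, which checks the computation and not those assumptions. The F test between pairs, fits combining the block with another choice and the counts without each pair were added after seeing the data. Up to 4 genes of each list were named, those with the largest difference and a mean above the median probe set, and the 6 genes most like Dusp4 by each measure. Other list genes named for a difference between pairs were chosen after their values were seen. The members and lists were chosen with earlier results of these data known. Promoter sequences are those of RefSeq (GRCm38.p6).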

Additional observations from a re-analysis of the deposited data

How the results depend on the processing

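The lower Dusp4 value kept its direction in all 20 alternatives. It ranged from -1.85 to -0.88 when 1 sample was left out and from -1.39 to -1.29 when 1 pair was left out. With the replicate block its adjusted p was 0.182, and array medians subtracted gave 0.140. A member was called between genotypes only with the block plus another choice: without dim probe sets Dusp4 stayed at -1.34 and was the 1 gene and 1 member called, and with an intensity trend and robust eBayes, again at -1.34, 21 genes including 1 member were called. Leaving out WT replicate 1 called 1 gene, no member. Among the other members, small differences changed sign. With array medians subtracted, with or without the block, Dusp5 became -0.014. Quantile normalization again gave 0.0051 for Dusp1 and 0.016 for Dusp16. Array weights gave 0.014 for Dusp1, -0.0069 for Dusp5 and 0.019 for Dusp9. Leaving out 1 sample or pair gave a lowest and a highest difference of -0.26 and 0.35 for Dusp1, -0.48 and 0.28 for Dusp2, -0.68 and 0.77 for Dusp5, -0.28 and 0.25 for Dusp6, -0.31 and 0.16 for Dusp7, -0.62 and 0.14 for Dusp8, -0.23 and 0.065 for Dusp9, -0.55 and 0.77 for Dusp10, and -0.63 and 0.53 for Dusp16. These fits without 1 sample had no block, so its partner stayed in. The number of members called between pairs was 0 without pair 1, 6 without pair 2 and 5 without pair 3, and it was 9 without dim probe sets, where 26% of genes were called, and 9 with an intensity trend and robust eBayes, where 17.7% were. The median differences of the 6 related gene lists lay between -0.25 and 0.16 in all alternatives. The cause was not tested for any of these changes. Dusp9 has no value in the settings without dim probe sets.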
